A study of Mus musculus with 38 samples.

Results

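The fibroblast growth factor (FGF) ligands Fgf4, Fgf5, Fgf8 and Fgf15 and the receptors Fgfr1, Fgfr2, Fgfr3 and Fgfr4 were followed in mouse embryonic stem cells (mESCs) that left pluripotency under retinoic acid (RA). These 8 genes were taken by name from the 23479 genes compared in the bulk table and from the same genes in the single-cell data. The series held 38 samples: 25 bulk libraries of unique molecular identifier (UMI) counts made from the 3′ ends of transcripts, 9 plates of single cells profiled by SCRB-seq, a 3′ UMI method, and 4 sets of single cells profiled by SMART-seq2, which reads whole transcripts. The question for these genes was which ligands and receptors the cells used before, during and after the split into ectoderm-like and XEN-like cells, XEN being extraembryonic endoderm.

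The 2 mESC libraries (0 h) came from E14 cells, a feeder-free mouse embryonic stem cell line, grown in 2i/L. This medium contained 1 µM of the MEK inhibitor PD0325901, 3 µM of the GSK3 inhibitor CHIR99021 and 1000 U/ml leukemia inhibitory factor. All later libraries of the time course came from E14 cells in N2B27 medium with 0.25 µM RA and without the inhibitors, at 6, 12, 24, 36, 48, 60, 72, 84 and 96 h, with 1 culture per time. A change from 0 h therefore carries the loss of a MEK inhibitor, which acts below the FGF receptors. It also carries the loss of the GSK3 inhibitor, leukemia inhibitory factor and additional insulin, and the gain of RA. These cannot be told apart. Cells were also sorted on the surface proteins CD24 and PDGFRA. At 48 h PDGFRA- cells were divided into quartiles of CD24 (Q1 lowest to Q4 highest). At 72 h PDGFRA- cells were divided into terciles of CD24 (T1 lowest to T3 highest), beside a PDGFRA+ CD24- gate. Each gate gave 1 library. The sorts of 96 h took CD24+ PDGFRA- (ectoderm-like) and PDGFRA+ CD24- (XEN-like) cells and gave 2 libraries per lineage. Cells sorted at 96 h were also cultured further in N2B27 with 20 ng/ml EGF and 10 ng/ml FGF2, the ectoderm-like cells to passage 5 and the XEN-like cells for 3 weeks, with 1 library each. The cultures thus received an FGF protein from outside, which the other samples did not, and the paper names no RA in their medium. The study's methods call the libraries of these groups biological replicates, without saying whether each came from its own culture or differentiation, and p-values measure the spread between these libraries.

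FGF ligands bind receptor tyrosine kinases on the cell surface with heparan sulfate as a cofactor, and the receptors signal through the adaptor FRS2 to the RAS, RAF, MEK and ERK relay. In the early mouse embryo FGF4 from the epiblast acts through FGFR1 and FGFR2 and directs cells of the inner cell mass to primitive endoderm, and in mESCs FGF4 is the main autocrine ligand that primes cells to leave pluripotency. FGF15, the mouse ortholog of human FGF19, is expressed in the early neural tube and, in the adult, is an endocrine ligand that acts on the liver through FGFR4 and the co-receptor beta-klotho.

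Fgf4 and Fgf15 are neighbours on chromosome 7. In the GENCODE M21 annotation of GRCm38, Fgf4 spans chr7:144847367-144865243 and Fgf15 chr7:144896531-144900953, both on the plus strand, with 31.3 kb between them. Fgf3 lies 2.93 kb before Fgf4, and Ccnd1, which encodes cyclin D1, lies 28.98 kb beyond Fgf15 on the minus strand. The other members are spread over the genome: Fgf5 at chr5:98254184-98277030, Fgf8 at chr19:45736798-45742915, Fgfr1 at chr8:25513654-25575718, Fgfr2 at chr7:130162451-133123350, Fgfr3 at chr5:33721674-33737068 and Fgfr4 at chr13:55152640-55168759. The counts refer to the 3′ ends of whole genes, so the splice forms of a receptor that decide which ligand it binds could not be separated.

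RefSeq promoters of GRCm38.p6, from 250 bases before to 50 bases after a gene start, matched 5 of the 8 members. RefSeq and GENCODE place some gene starts differently: the windows of Fgf4 and Fgfr2 lie inside the spans given above, at the start of a RefSeq transcript and not at the outer end of the GENCODE gene. The 3 printed here belong to the ligand that was lost under RA and to the receptors Fgfr2 and Fgfr3, which rose in the bulk UMI counts. Capitals mark matches, on either strand, to any of 8 motifs: AGGTCA as the half-site of nuclear receptors with its variants GGGTCA as well as AGTTCA, the GC box GGGCGG, the TATA box TATAAA, the octamer ATGCAAAT, the E-box CACGTG and the Sox motif AACAAAG. No overlap between matches occurs in these windows. The windows lie at chr7:144861136-144861435 on the plus strand for Fgf4, chr7:130266759-130267058 on the minus strand for Fgfr2 and chr5:33721474-33721773 on the plus strand for the first of 2 Fgfr3 entries.
Fgf4: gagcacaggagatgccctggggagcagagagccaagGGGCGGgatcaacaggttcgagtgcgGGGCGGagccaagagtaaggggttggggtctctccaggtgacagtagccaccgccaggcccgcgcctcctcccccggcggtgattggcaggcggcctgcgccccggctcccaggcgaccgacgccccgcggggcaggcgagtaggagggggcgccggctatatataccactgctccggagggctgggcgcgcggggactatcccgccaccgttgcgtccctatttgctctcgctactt
Fgfr2: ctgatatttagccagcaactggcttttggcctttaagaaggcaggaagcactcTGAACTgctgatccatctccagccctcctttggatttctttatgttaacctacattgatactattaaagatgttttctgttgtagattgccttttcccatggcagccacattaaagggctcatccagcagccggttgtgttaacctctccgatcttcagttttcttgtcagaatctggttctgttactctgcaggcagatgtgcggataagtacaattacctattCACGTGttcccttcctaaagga
Fgfr3: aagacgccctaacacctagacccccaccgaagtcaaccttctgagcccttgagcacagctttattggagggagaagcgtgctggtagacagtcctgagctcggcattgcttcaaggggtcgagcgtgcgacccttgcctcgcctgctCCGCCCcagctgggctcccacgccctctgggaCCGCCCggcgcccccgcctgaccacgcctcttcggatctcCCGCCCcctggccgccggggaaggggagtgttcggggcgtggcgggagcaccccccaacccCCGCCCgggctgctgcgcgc
The Fgf4 window held 2 GC boxes, 69.7% G and C and 28 CG pairs, against medians of 52.7% and 7 over 32851 promoters. The Fgfr3 window had 4 GC boxes and 26 CG pairs. The Fgfr2 window differed from both in base composition, with 43.7% G and C and 4 CG pairs, and held AGTTCA on the opposite strand, its first base 197 bases before the gene start, and CACGTG from base 29 after it. Of all promoters, 35.7% held GGGCGG, 16.3% AGGTCA, 13.7% GGGTCA, 13.99% AGTTCA, 13.6% TATAAA, 7.15% CACGTG, 5.85% AACAAAG and 1.74% ATGCAAAT. These matches describe the letters only.

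The bulk libraries held between 1063830 and 2459483 UMIs, and values are given as UMIs of a gene per 1000000 UMIs of its library (CPM). Intervals are 95% exact Poisson intervals, or exact intervals conditional on the sum for ratios, and cover counting error only. Over the 25 bulk libraries Fgfr1 had 880 UMIs, Fgf15 552, Fgfr2 359, Fgf4 261, Fgfr3 123, Fgfr4 65, Fgf5 31 and Fgf8 3. The labels of the sorted cells were checked against markers. The 11 XEN markers summed to 12049 and 6664 CPM in the sorted XEN-like libraries, and to 485 and 1779 CPM in the sorted ectoderm-like libraries, so that the second ectoderm-like library carried more XEN marker RNA than the first. The 11 ectoderm markers summed to 3270 and 2803 CPM in ectoderm-like and to 611 and 323 CPM in XEN-like libraries. The 11 pluripotency markers summed to 6265 and 4524 CPM in the sorted XEN-like libraries, 790 and 432 CPM in the ectoderm-like ones and 13412 and 18321 CPM in mESCs. Most of the XEN-like sum was Dppa5a, at 5149 ± 1128 CPM against 13421 ± 3434 CPM in mESCs (SD, n = 2). By edgeR's test, described with the sorted cells, all 11 were called lower in XEN-like cells than in mESCs (median log2 fold change -4.33) and 10 in ectoderm-like cells (-6.12). The part of these mixtures in the results on single genes was not tested.

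Fgf4 was the ligand of the undifferentiated cells and was nearly gone by 48 h. It stood at 24.1 and 31.8 CPM in the mESC libraries, 19.1 CPM at 6 h, 20.3 CPM at 12 h, 10.96 CPM at 24 h and then 2.42 CPM at 36 h. From 48 h to 84 h every library was below 1 CPM, with 2, 1, 0 and 1 UMIs in order, and 96 h had 3.07 CPM from 6 UMIs. At 24 h Fgf4 was 2.55-fold (1.61 to 4.21) below the mean of the mESC libraries, at 36 h 11.5-fold (4.40 to 42.99) below it, and at 72 h, where no UMI was found, at least 17.1-fold below it with 3 counts taken as the limit of detection. In bulk samples fewer cells that express a gene and less RNA per cell cannot be told apart.

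Fgf15 appeared at 72 h, a day after Fgf4 had come to its low level, and the interval between them held little of either ligand. Fgf15 was at most 2.64 CPM, or 6 UMIs, in every whole culture through 60 h. It then stood at 21.3 CPM at 72 h, 39.9 CPM at 84 h and then 23.6 CPM at 96 h. The 72 h library was 17.7-fold (4.58 to 151) above the 60 h library. At 48 h Fgf4 and Fgf15 were at 0.813 and 0.407 CPM, and at 60 h at 0.601 and 1.20 CPM. Between the mean of mESCs and 96 h, log2(CPM + 1) changed by -2.81 for Fgf4 and by 3.91 for Fgf15, against SDs of 0.274 and 0.273 between the mESC libraries. These are single cultures after 0 h, and no test was run.

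**Figure D1:**
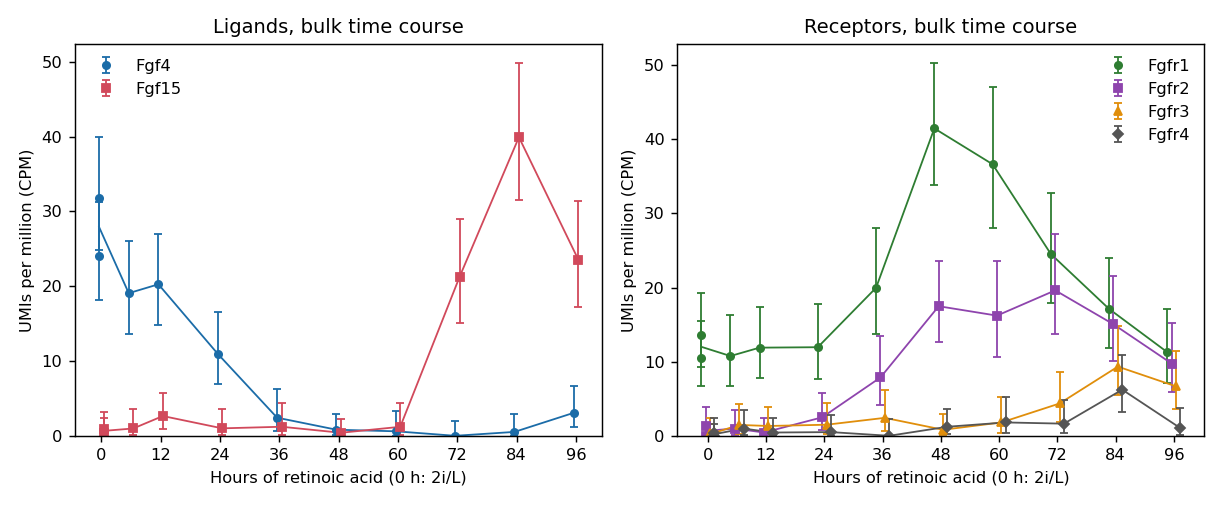
Bulk levels of the FGF ligands and receptors in CPM (vertical axes) against hours in RA (horizontal axes), with bars for 95% Poisson intervals and 1 library per time except for 2 at 0 h. Fgf4 is at 2.42 CPM at 36 h and Fgf15 appears at 72 h with 21.3 CPM, while Fgfr1 peaks at 41.5 CPM at 48 h and Fgfr2 stays between 15.0 and 19.6 CPM from 48 h to 84 h.

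Among cells sorted at 72 h, Fgf15 was higher in the gates with more CD24. It stood at 6.99 CPM in T1, 16.8 CPM in T2 and 86.7 CPM in T3, and no UMI was found in the PDGFRA+ gate. T3 was 12.4-fold (6.31 to 27.8) above T1 and 5.17-fold (3.17 to 8.91) above T2, and at least 39.3-fold above the PDGFRA+ gate. The gates were cut on CD24, and ectoderm markers moved with them, from 1294 CPM in T1 to 2047 CPM in T2 and 2492 CPM in T3, with 243 CPM in the PDGFRA+ gate. Their part in the Fgf15 values was not tested. At 48 h no such order was seen: the quartiles held 2.01, 1.43, 4.70 and 1.89 CPM from Q1 to Q4, or 2 to 5 UMIs each. Fgf4 was at most 1.55 CPM in all 8 gates.

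The remaining ligands among the members were hardly detected. Fgf5, a marker of the post-implantation epiblast, had at most 5 UMIs in any bulk library (2.56 CPM at 96 h), and lay at 0.875 and 0.435 CPM in mESCs. Fgf8, which patterns the gastrula and the midbrain, had 1 UMI in each of 3 libraries, namely Q2, T2 and the first sorted ectoderm-like library, and none in the other 22.

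Fgfr1, the main receptor of mESCs and neuroepithelium, was present from the start and was highest in the middle of the time course. It stood at 13.6 and 10.5 CPM in mESCs, between 10.8 and 12.0 CPM from 6 h to 24 h, 20.0 CPM at 36 h, 41.5 CPM at 48 h, 36.6 CPM at 60 h, 24.5 CPM at 72 h, 17.1 CPM at 84 h and then 11.3 CPM at 96 h. The 48 h library was 3.46-fold (2.47 to 4.89) above mESCs, and the 96 h library differed from mESCs by less than its counting error (0.940-fold, 0.546 to 1.57).

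Fgfr2, the receptor that marks primitive endoderm in the blastocyst and is also used by the neural plate, was nearly absent from mESCs. It held 1.31 and 0 CPM there, 0.978 CPM at 6 h, 0.441 CPM at 12 h, 2.49 CPM at 24 h, 7.87 CPM at 36 h, 17.5 CPM at 48 h, 16.2 CPM at 60 h, 19.6 CPM at 72 h, 15.0 CPM at 84 h and then 9.74 CPM at 96 h. The 36 h library was 12.0-fold (3.30 to 65.8) and the 48 h library 26.7-fold (8.55 to 135) above mESCs. In these single bulk libraries Fgfr2 had thus come near its highest level by 48 h, and Fgf15 rose between 60 h and 72 h.

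In the bulk UMI counts Fgfr3 and Fgfr4 came last. Fgfr3 was at 0 and 0.435 CPM in mESCs, at most 2.42 CPM from 6 h to 60 h, and then 4.36 CPM at 72 h, 9.33 CPM at 84 h and then 6.66 CPM at 96 h. The 84 h library was 42.8-fold (6.75 to 1782) above mESCs, an interval set by the single UMI of the mESC libraries. Fgfr4 was at most 1.80 CPM through 72 h, at 6.22 CPM (12 UMIs) at 84 h and at 1.02 CPM (2 UMIs) at 96 h.

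The gates at 72 h separated the receptors. Fgfr1 stood at 17.1 CPM in T1, 28.2 CPM in T2 and 31.5 CPM in T3 but at 2.20 CPM in the PDGFRA+ gate, 14.3-fold (4.55 to 72.1) below T3. Fgfr2 was at 10.1, 7.06 and 11.5 CPM in T1 to T3 and at 2.20 CPM in the PDGFRA+ gate. Both receptors were lower in the PDGFRA+ gate than in any gate of PDGFRA- cells. Fgfr3 and Fgfr4 showed the opposite order: Fgfr3 was at 7.35 CPM in the PDGFRA+ gate and 3.91-fold (1.34 to 12.1) above the summed PDGFRA- gates, and Fgfr4 was at 5.88 CPM there, 21.9-fold (2.94 to 972) above the 1 UMI of the PDGFRA- gates. At 48 h the 4 quartiles held 17.4, 18.6, 25.4 and 25.9 CPM of Fgfr1, with Q4 1.49-fold (0.889 to 2.54) above Q1, so that the interval included no difference. The 48 h gates together lay below the unsorted 48 h culture for Fgfr1 (0.522-fold, 0.398 to 0.687) and for Fgfr2 (0.392-fold, 0.247 to 0.621), although they covered all PDGFRA- cells, so levels were not compared between sorted and unsorted libraries of the same time. The same difference in handling lies between the sorted cells of 96 h and the mESCs and between those sorted cells and the long-term cultures, and its part in those comparisons was not tested.

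**Figure D2:**
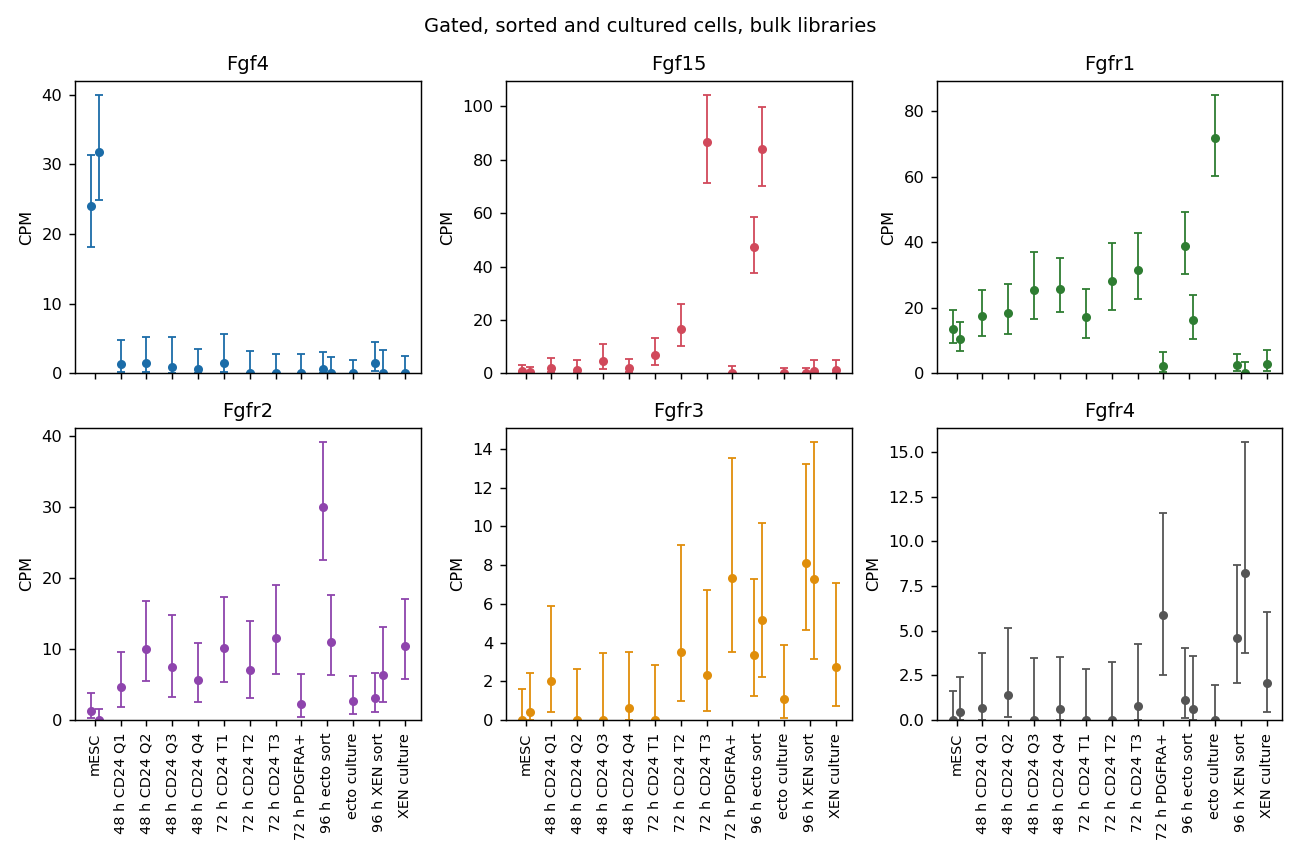
CPM (vertical axes) of Fgf4, Fgf15 and the 4 receptors in mESCs, the gates of 48 h and 72 h, the sorted libraries of 96 h and the long-term cultures, each point being 1 library and each bar its 95% Poisson interval. Fgf15 is high in T3 (86.7 CPM) and in both sorted ectoderm-like libraries (47.2 and 84.0 CPM) and has no UMI in the culture grown from them, while Fgfr1 is highest in that culture (71.7 CPM).

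At 96 h the sorted cells had 2 libraries a group, and the members could be tested with edgeR's quasi-likelihood test and Benjamini-Hochberg adjustment over 8947 genes. Of the 8 members 5 passed the filter on low counts, and Fgf5, Fgf8 and Fgfr4 did not. A member passed where its counts were high enough in either group, so shares among the 5 are not shares of all members. In ectoderm-like cells against mESCs 9.85% of the tested genes were called higher and 9.28% lower at an adjusted p below 0.05, and of the members 3 were called higher and 1 lower. In XEN-like cells against mESCs 12.3% were called higher and 10.5% lower, and of the members 1 was higher and 2 lower. Between XEN-like and ectoderm-like cells 6.99% were higher in XEN-like cells and 5.74% lower, and of the members none was higher, also by DESeq2 and at an unadjusted p under 0.05, and 2 were lower. With libraries scaled by their totals alone, in place of TMM factors, 1372 genes were higher and 587 lower in ectoderm-like cells against mESCs (881 and 830 with TMM) and 1336 and 703 in XEN-like cells (1103 and 939), the median of all genes moving from 0.05 to 0.36 and from -0.06 to 0.15, and the calls of the members were the same. The comparisons share libraries.

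Fgf4 was lost from both lineages. Against the 24.1 and 31.8 CPM of mESCs, the sorted ectoderm-like libraries held 0.556 and 0 CPM and the XEN-like libraries 1.52 and 0 CPM, without overlap. The log2 fold change was -6.55 ± 0.78 (SE; adjusted p = 0.000223) in ectoderm-like cells and -5.01 ± 0.68 (adjusted p = 0.000381) in XEN-like cells. No difference between the lineages was called (1.54 ± 1.37, adjusted p = 0.525).

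Fgf15 was gained by ectoderm-like cells. It stood at 47.2 and 84.0 CPM in ectoderm-like, 0 and 0.911 CPM in XEN-like and 0.875 and 0.435 CPM in mESC libraries, and the ectoderm-like values lay far above the rest. The log2 fold change was 6.22 ± 0.64 (adjusted p = 8.11e-05) in ectoderm-like cells against mESCs and -7.28 ± 0.77 (adjusted p = 0.000675) in XEN-like against ectoderm-like cells. Between XEN-like cells and mESCs the values overlapped and no difference was called (-1.06 ± 1.43, adjusted p = 0.630).

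Fgfr1 was lower in XEN-like cells than in either of the others. It stood at 38.9 and 16.2 CPM in ectoderm-like, 2.54 and 0 CPM in XEN-like and 13.6 and 10.5 CPM in mESC libraries. The ectoderm-like libraries were apart from each other but both above mESCs, and the increase was not called (0.88 ± 0.50, adjusted p = 0.250). In XEN-like cells the log2 fold change was -3.11 ± 0.74 against mESCs (adjusted p = 0.0107) and -3.99 ± 0.71 against ectoderm-like cells (adjusted p = 0.00460), and the latter was not called when the first ectoderm-like library was left out (-3.26, adjusted p = 0.0635).

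Fgfr2 was gained by ectoderm-like cells, with 30.01 and 10.98 CPM against 1.31 and 0 CPM in mESCs (4.53 ± 0.86, adjusted p = 0.00361; 3.72 and adjusted p = 0.0619 without the first ectoderm-like library). The XEN-like libraries lay between, with 3.05 and 6.38 CPM, and neither their difference from mESCs (2.44 ± 1.06, adjusted p = 0.125) nor that from ectoderm-like cells (-2.10 ± 0.70, adjusted p = 0.0734) was called. The latter was called when no filter was applied (adjusted p = 0.00340), when only the 4 libraries compared were fitted (adjusted p = 0.0375) and without the first or the second mESC library (adjusted p = 0.0277 and 0.0286). The former was called with no filter (adjusted p = 0.0297) and without the first mESC library (5.94, adjusted p = 0.0483).

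In the bulk UMI counts Fgfr3 was higher in XEN-like cells, with 8.13 and 7.29 CPM against 0 and 0.435 CPM in mESCs (4.59 ± 0.93, adjusted p = 0.00420). Without the first XEN-like library this difference was not called (4.65). SMART-seq2 counted Fgfr3 in 75.6% of mESCs at 0 h and had no cells of 96 h. The ectoderm-like libraries had 3.34 and 5.17 CPM, below both XEN-like libraries and above both mESC libraries. Their difference from mESCs was called (3.63 ± 1.01, adjusted p = 0.0266), but leaving out any of the 6 libraries ended the call (2.75 to 5.80, adjusted p from 0.0531 to 0.168), as did DESeq2 (adjusted p = 0.130). The second ectoderm-like library, with the higher Fgfr3 value, was also the one with more XEN marker RNA. The lineages did not differ by a call (0.96 ± 0.61, adjusted p = 0.348).

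Fgfr4 stood at 4.57 and 8.20 CPM in XEN-like, 1.11 and 0.646 CPM in ectoderm-like and 0 and 0.435 CPM in mESC libraries, with 9 UMIs in each XEN-like library. It was below the filter. In the fit without a filter its log2 fold change in XEN-like cells was 4.26 ± 1.17 against mESCs (adjusted p = 0.00305) and 2.79 ± 1.00 against ectoderm-like cells (adjusted p = 0.0513).

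Where a group held 0 to 5 UMIs, the size of the fitted value depended on single libraries. Without the first XEN-like library, which held all UMIs of that group for Fgf4 and Fgfr1, the log2 fold change against mESCs was -8.79 for Fgf4 and -7.57 for Fgfr1, and that of Fgfr1 against ectoderm-like cells was -8.45. Without the second XEN-like library, which held the only Fgf15 UMI of that group, Fgf15 was at -9.89 against ectoderm-like cells. Without the first mESC library Fgfr2 in ectoderm-like cells was at 8.05, and without the second Fgfr3 was at 5.80 in ectoderm-like cells and at 6.77 in the XEN-like ones. Of the called differences every direction was kept when 1 library was left out. Without the first XEN-like library, 2 differences that were not called changed sign, namely Fgf15 in XEN-like cells against mESCs (0.39) and Fgf4 in XEN-like against ectoderm-like cells (-2.26).

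**Figure D3:**
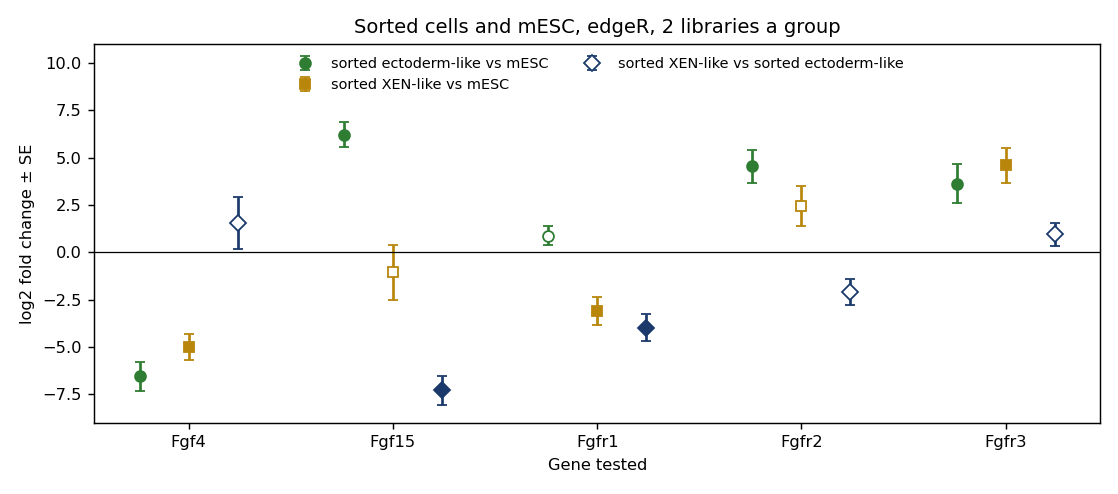
Log2 fold changes (vertical axis) of the 5 tested FGF genes (horizontal axis) in the 3 comparisons of sorted cells and mESCs, with bars of 1 SE from edgeR, filled where the adjusted p was below 0.05 and open where it was not. Fgf15 lies at 6.22 in ectoderm-like cells against mESCs and at -7.28 in XEN-like against ectoderm-like cells, Fgf4 is below 0 against mESCs in both lineages, and Fgfr1 is below 0 in XEN-like cells.

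The long-term cultures differed from the sorted cells of their lineage in Fgf15 and in the receptors. In the ectoderm-like culture no UMI of Fgf15 was found, at least 40-fold below the summed sorted libraries. Fgfr2 was at 2.68 CPM in that culture, 0.126-fold (0.0398 to 0.309) of the sorted cells, and Fgfr1 was at 71.7 CPM, 2.53-fold (1.93 to 3.32) of the sorted cells and above every other bulk library. In the XEN-like culture Fgfr2 was at 10.3 CPM, 2.44-fold (1.08 to 5.57) of the sorted XEN-like cells, and Fgfr1 at 2.76 CPM. Fgfr1 was 26-fold (9.92 to 96.8) higher in the ectoderm-like than in the XEN-like culture, whereas Fgfr2 was 0.259-fold (0.0736 to 0.749). The order of the cultures was therefore that of the sorted cells for Fgfr1 and the opposite for Fgfr2. Per the paper the ectoderm-like culture grew on laminin-coated dishes and was dissociated, while the XEN-like one was kept as undissociated floating aggregates. The part of this difference in the values was not tested. Fgf4 had no UMI in either culture. The cultures were grown on after the sort, whereas the sorted libraries were made from sorted cells, and sorted libraries of 48 h lay at 0.522-fold (Fgfr1) and 0.392-fold (Fgfr2) of an unsorted culture. The paper names no RA in the culture medium. RA, EGF, FGF2, time in culture and sorting changed together and cannot be told apart.

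SCRB-seq gave the same genes cell by cell, in 137 to 335 cells per time with more than 2000 UMIs and a median of 3560 to 5069 UMIs. All 384 well names recur on each of the 9 plates, and no cells of different plates had identical counts. There was 1 plate per time, so values are given without a test. Fgf4 had a UMI in 148 of 282 cells at 0 h (52.5%, 46.5 to 58.4), in 36.4% at 6 h, 27.7% at 12 h, 16.2% at 24 h and 10.2% at 36 h. At 48 h it was found in 0 of 277 cells, which allows up to 1.08% of cells with a UMI and sets no limit on cells that express it, and in none at 60, 72 or 96 h. The share was lower at each time than at the one before until none was left. After each cell was thinned to 2000 UMIs the share was 33.3% at 0 h and 3.89% at 36 h. Per 10000 UMIs the level was 2.43 at 0 h and 0.221 at 36 h, 10.97-fold (8.26 to 14.8) lower. That 0 h level was well above the bulk one, 24.1 and 31.8 CPM, so levels were compared within an assay only.

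Fgf15 was sparse in single cells, with 1 UMI in all cells up to 60 h, 11 UMIs in 7 of 235 cells at 72 h and 17 UMIs in 11 of 137 cells at 96 h (8.03%, 4.08 to 13.9). Fgfr1 had a UMI in 24.8% of cells at 0 h, 16.2% at 24 h and 34.8% at 60 h, and lay at 26.3% at 96 h. Fgfr2 was in 0 of 282 cells at 0 h, which allows 1.06% of cells with a UMI, and in 0 of 335 at 6 h, then in 7.78% at 36 h, 19.5% at 48 h, 31.5% at 60 h, 24.3% at 72 h and 7.30% at 96 h. The Fgfr2 level at 60 h was 7.60-fold (5.33 to 11.1) that of 36 h and 2.25-fold (1.73 to 2.94) that of 48 h. It was thus still rising after 48 h, unlike in bulk. At 96 h it was 5.23-fold (3.14 to 9.32) lower than at 60 h. Fgfr3 was in at most 2.81% of cells to 48 h and in 4.40%, 5.96% and 10.2% at 60, 72 and 96 h. Fgfr4 was in at most 2.55% and Fgf5 in at most 5.86% of cells at any time, and Fgf8 had no UMI on any plate. Thus the order seen in bulk, with Fgf4 first, Fgfr2 next and Fgf15 and Fgfr3 last, was also the order in the plates. Both assays count 3′ UMIs. For Fgfr3 the whole-transcript SMART-seq2 data differed, with 75.6% of cells counted at 0 h and 51.2% at 48 h.

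At 96 h the cells were divided into terciles by their summed XEN markers, which took 0.313%, 1.20% and 2.17% of UMIs. Fgf15 per 10000 UMIs was 0.490 (0.235 to 0.902), 0.215 (0.0698 to 0.501) and 0.0689 (0.00835 to 0.249) from the lowest to the highest tercile. Fgfr1 was 1.62 (1.11 to 2.27), 1.03 (0.661 to 1.54) and 0.517 (0.289 to 0.853). Both levels were lower where XEN markers were higher. Fgf15 rested on 10, 5 and 2 UMIs, and its outer intervals overlapped narrowly. Those of Fgfr1 did not overlap. Cells with an Fgfr1 UMI were 12 of 46, 14 of 46 and 10 of 45, without this order. Fgfr2, at 0.0981, 0.172 and 0.345, had the opposite order on 2, 4 and 10 UMIs with intervals that overlapped. Fgfr3 was 0.441 (0.202 to 0.838), 0.430 (0.206 to 0.790) and 0.172 (0.0560 to 0.402) per 10000 UMIs, and these intervals also overlapped. The 9 Fgfr3 UMIs of the lowest tercile came from 2 of 46 cells. In the middle and highest terciles 7 of 46 and 5 of 45 cells had one, so cells and UMIs gave different orders. At 72 h Fgfr1 had the reverse of its 96 h order between the outer terciles, with 0.593 (0.372 to 0.898) in the lowest, 1.49 (1.13 to 1.93) in the middle and 1.26 (0.987 to 1.60) in the highest, and Fgf15 had 0, 8 and 3 UMIs. At 60 h Fgfr1 was also lowest in the lowest tercile (0.929, 1.45 and 1.33), with intervals that overlapped. Fgfr2 at 60 h was 0.768, 1.13 and 1.48, lowest where XEN markers were lowest. At 72 h Fgfr2 did not have that order, with 0.916, 0.638 and 0.962 on 34, 24 and 54 UMIs. At 60 h, 40 of 273 cells held UMIs of both Fgfr1 and Fgfr2, out of 95 with Fgfr1 and 86 with Fgfr2. At 0 h, 49 of the 148 cells with Fgf4 also held Fgfr1, which was in 70 of all 282 cells. Cells ranged from 2007 to 51050 UMIs at 60 h and from 2001 to 95489 UMIs at 0 h. The part of this depth in the overlaps was not tested.

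SMART-seq2 covered 82 cells at 0 h, 86 at 12 h, 89 at 24 h and 82 at 48 h, and a cell was counted where the gene exceeded 1 RPKM (reads scaled to transcript length and library size). Many deposited values between 1 and 10 RPKM carry a displaced decimal point, so mean levels are not given, and neither these shares nor the classes of cells used here depend on it. Fgf4 was counted in 87.8% of cells at 0 h (78.7 to 94.0), 93.0% at 12 h, 60.7% at 24 h and 3.66% at 48 h (0.761 to 10.3). It reached 100 RPKM in 7 and 10 cells at 0 h and 12 h and in none later. Fgfr2 went from 9.76% (4.31 to 18.3) at 0 h and 8.14% at 12 h to 22.5% at 24 h and 67.1% (55.8 to 77.1) at 48 h. At 24 h the interval of Fgf4 (49.75 to 70.87) lay below that of 0 h. The 24 h interval of Fgfr2 (14.3 to 32.55) overlapped that of 0 h, and SCRB-seq found Fgfr2 in 2.11% of cells at 12 h and 1.72% at 24 h. Fgfr1 was counted in 79.3%, 73.3%, 68.5% and 81.7% of cells in order of time. Fgfr3 was counted in 75.6% of cells at 0 h, 73.3% at 12 h, 73.03% at 24 h and 51.2% at 48 h, whereas SCRB-seq found it in 1.77%, 2.81%, 0% and 1.81% of cells at these times. The assays thus differed on this receptor at all 4 times. Fgfr4 was in 9.76% and 19.5% and Fgf5 in 4.88% of cells at 0 h and 48 h, and Fgf15 in none at either. Fgf15 was counted in 2 of 86 cells at 12 h (2.33%, 0.283 to 8.15) and in 5 of 89 at 24 h (5.62%, 1.85 to 12.6), with intervals that overlapped those of 0 of 82 cells at 0 h and 48 h (up to 4.40%).

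Within the 48 h cells of SMART-seq2, the shares of Fgfr1 and Fgfr2 rose with Cd24a, the RNA of the surface protein used for sorting. Fgfr1 was counted in 10 of the 19 cells with Cd24a at or under 1 RPKM (52.6%, 28.9 to 75.6), in 81.8% of the 33 cells between 1 and 100 RPKM and in all 30 cells at or over 100 RPKM (88.4 to 100). Fgfr2 was in 42.1%, 66.7% and 83.3% of the same classes, and the intervals of the outer classes (20.3 to 66.5 and 65.3 to 94.4) overlapped narrowly. Fgfr3 was in 42.1%, 57.6% and 50.0% of them, without this order. The bulk gates of 48 h, cut on CD24 protein in PDGFRA- cells, did not have it for Fgfr2 either. They held 7, 14, 8 and 9 Fgfr2 UMIs from Q1 to Q4, in libraries of 1063830 to 1583805 UMIs. Of the 10 cells with Pdgfra above 1 RPKM, 8 held Fgfr2, 7 Fgfr1, 4 Fgfr4 and 3 Fgf5. Of the 72 other cells 65.3% held Fgfr2, 83.3% Fgfr1 and 16.7% Fgfr4, and 1 cell held Fgf5. For each of these genes the intervals of both groups overlapped.

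**Figure D4:**
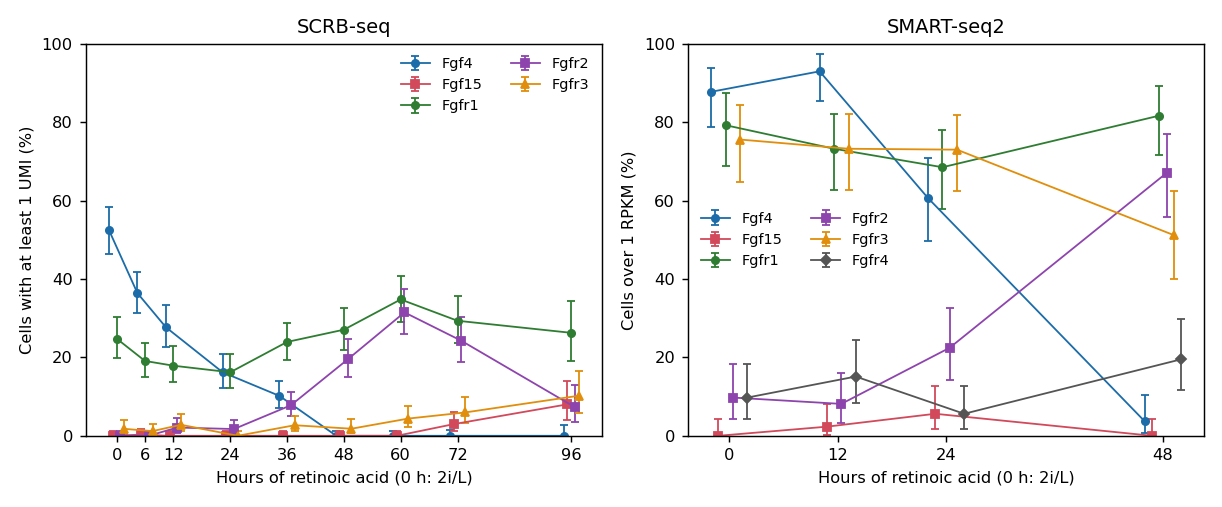
Percent of single cells (vertical axes) with a UMI in SCRB-seq or above 1 RPKM in SMART-seq2 against hours in RA (horizontal axes) for FGF genes, with bars for 95% Clopper-Pearson intervals. Fgf4 is at 52.5% at 0 h and 0% from 48 h in SCRB-seq, and at 87.8% at 0 h, 93.0% at 12 h and 3.66% at 48 h in SMART-seq2, Fgfr2 reaches 31.5% at 60 h and 67.1% at 48 h, and Fgfr3 is low in SCRB-seq and high in SMART-seq2.

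Ligands outside the members were few. Of 18 further ligands 4 had no UMI in the bulk libraries, 11 had 1 to 9 UMIs in their highest library and 3 had 10 or more in some library. Fgf10, a mesenchymal ligand of FGFR2, was the only one past the filter on low counts. It had 38 and 7 UMIs in the sorted XEN-like libraries, a mean of 12.8 ± 9.1 CPM (SD, n = 2), against 1.96 ± 1.54 CPM in mESCs and 0.969 ± 1.37 CPM in ectoderm-like cells, and was called higher in both comparisons (2.50 ± 0.79, adjusted p = 0.0413, and 3.86 ± 0.95, adjusted p = 0.0218). The call against mESCs was lost under DESeq2 (2.49, adjusted p = 0.123), with the replicate block (2.40, adjusted p = 0.0673) and without the first mESC library (1.84, adjusted p = 0.175) or the first XEN-like library (1.61, adjusted p = 0.477). That against ectoderm-like cells was lost when either the first ectoderm-like library (2.80, adjusted p = 0.207) or the first XEN-like library (2.94, adjusted p = 0.294) was left out. In the PDGFRA+ gate it had 14 UMIs, and at most 1 UMI in any other gate. Fgf7 was seen mainly in the ectoderm-like culture, with 33 UMIs.

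The counts of called genes in the lists that follow stand beside the shares of all tested genes given above, namely 9.85% higher and 9.28% lower in ectoderm-like and 12.3% and 10.5% in XEN-like cells against mESCs, and 6.99% and 5.74% between the lineages. Of 20 co-receptors and binding proteins 12 were tested. In ectoderm-like cells against mESCs 8 were higher and 1 lower (median log2 fold change 2.44, against 0.05 over all genes), in XEN-like cells 4 were higher and 1 lower (0.43 against -0.06), and in XEN-like against ectoderm-like cells 3 were higher and 6 lower (-2.11 against -0.06). DESeq2 called 5, 4 and 3 higher and 1, 0 and 4 lower. Flrt3, a membrane protein that binds FGF receptors, rose in both lineages, to 127 ± 2.9 CPM in ectoderm-like cells and 305 ± 54 CPM in the XEN-like ones from 6.11 ± 1.21 CPM (SD, n = 2). Klb, which encodes beta-klotho, was at 39.1 ± 11.5 CPM in XEN-like, 2.26 ± 3.20 CPM in ectoderm-like and 0.873 ± 0.003 CPM in mESC libraries, and was called higher in XEN-like cells than in either (5.19 ± 0.78, adjusted p = 0.000715, and 4.25 ± 0.71, adjusted p = 0.00351). Klb and Fgfr4, with which it acts as a receptor of FGF15, thus stood highest in XEN-like cells among these 3 groups, and Fgf15 itself in ectoderm-like cells. Cdh2, the N-cadherin of neural cells that also binds FGFR1, and Gpc3, a glypican, were lower in XEN-like than in ectoderm-like cells (-6.21 ± 0.56 and -4.40 ± 0.58, adjusted p = 0.000262 and 0.00130). Cdh2 is also known as a neural marker.

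Heparan sulfate enzymes, which build the cofactor of FGF binding, gave 12 tested genes of 19, of which 5 were higher and none lower in ectoderm-like cells against mESCs (median 1.11), 4 higher and none lower in XEN-like cells (0.58), and 1 higher and 1 lower between the lineages (-0.35), against the same medians of all genes. DESeq2 called 2, 3 and 0 higher and none lower. At an unadjusted p under 0.05 edgeR gave 7 higher and 0 lower in ectoderm-like and 5 higher and 0 lower in XEN-like cells against mESCs, and 2 higher and 4 lower between the lineages. Hs3st1, a 3-O-sulfotransferase, stood at 102 ± 0.72 CPM in XEN-like, 11.5 ± 13.1 CPM in ectoderm-like and 0.437 ± 0.619 CPM in mESC libraries, and Hs6st2, a 6-O-sulfotransferase, at 5.17 ± 3.00, 22.1 ± 12.0 and 0.436 ± 0.002 CPM (SD, n = 2). The lineages differed in both, Hs3st1 being higher (3.27 ± 0.66, adjusted p = 0.00892) and Hs6st2 lower (-2.08 ± 0.58, adjusted p = 0.0373) in XEN-like cells. DESeq2 called neither (adjusted p = 0.149 and 0.159), and the call of Hs6st2 was also lost without either ectoderm-like library (-1.39 and -2.43, adjusted p = 0.448 and 0.0516) or the first XEN-like library (-1.33, adjusted p = 0.276).

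Of the relay from receptor to ERK few genes were called. Of 19 genes 15 were tested, and 2 were higher and 2 lower in ectoderm-like cells against mESCs (median 0.25), 1 higher and none lower in XEN-like cells (0.08), and 1 higher and none lower between the lineages (-0.24). At an unadjusted p under 0.05 edgeR gave 3 higher and 2 lower, 1 higher and 1 lower, and 4 higher and 0 lower in these comparisons. DESeq2 called 0, 1 and 1 higher and 1, 0 and 0 lower. Frs2, the adaptor next to the receptor, was called higher in both lineages, at 12.3 ± 0.9 CPM in ectoderm-like and 21.6 ± 4.7 CPM in XEN-like cells against 3.49 ± 0.60 CPM in mESCs (1.49 ± 0.45, adjusted p = 0.0389, and 2.40 ± 0.43, adjusted p = 0.00217). The former call was lost under DESeq2 (adjusted p = 0.167), when only the 4 libraries compared were fitted (adjusted p = 0.0507), without any 1 of the mESC or ectoderm-like libraries (1.27 to 1.69, adjusted p from 0.0767 to 0.167) and without the first XEN-like library (adjusted p = 0.0537). Gab1, a docking protein of the relay, was lower in ectoderm-like cells than in mESCs (-2.20 ± 0.35, adjusted p = 0.00119) and higher in XEN-like than in ectoderm-like cells (2.02 ± 0.35, adjusted p = 0.00416; 1.75 and adjusted p = 0.0617 without the first ectoderm-like library).

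Targets and feedback inhibitors of FGF signaling split by gene. Of 19 genes 8 were tested, and 3 were higher and 2 lower in ectoderm-like cells against mESCs (median -0.70), none higher and 3 lower in XEN-like cells (-1.83), and none higher and 2 lower between the lineages (-1.51). The counts of 0 were also 0 at an unadjusted p under 0.05, and DESeq2 called 1, 0 and 0 higher and 2 lower in each comparison. Etv5, an ETS factor downstream of FGF and also part of the mESC network, fell in both lineages, from 64.3 ± 12.4 CPM to 2.96 ± 0.53 CPM in ectoderm-like and 1.47 ± 0.79 CPM in XEN-like cells (-4.72 ± 0.43 and -5.50 ± 0.48, adjusted p = 3.48e-05 and 3.72e-05). Spry2, a feedback inhibitor, fell in both (-2.36 ± 0.37 and -2.29 ± 0.38, adjusted p = 0.00117 and 0.00126). Dusp6, the phosphatase that ERK induces against itself, was at 52.6 ± 22.3 CPM in ectoderm-like, 4.46 ± 2.72 CPM in XEN-like and 12.9 ± 7.8 CPM in mESC libraries, with an increase over mESCs in ectoderm-like cells (1.72 ± 0.47, adjusted p = 0.0256; 1.29 and adjusted p = 0.206 without the first ectoderm-like library, 1.21 and adjusted p = 0.122 without the second mESC library) and lower in XEN-like than in ectoderm-like cells (-3.57 ± 0.59, adjusted p = 0.00321). The mESC values were measured under the MEK inhibitor.

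The neighbours of Fgf4 and Fgf15 on chromosome 7 did not follow the ligands as a block. Of 7 genes 5 were tested, with none called in ectoderm-like cells against mESCs, by edgeR or by DESeq2 (1 at an unadjusted p under 0.05 in each), 1 higher and 1 lower in XEN-like cells, and 1 lower between the lineages. Ccnd1 had the gate order of Fgf15, with 20.2, 52.9 and 82.1 CPM in T1 to T3 and 2.20 CPM in the PDGFRA+ gate. It stood at 95.6 and 136 CPM in ectoderm-like and 7.11 and 2.73 CPM in XEN-like libraries (-4.35 ± 0.43, adjusted p = 0.000536). It differed from Fgf15 in mESCs, with 48.6 and 55.7 CPM, and in the ectoderm-like culture, with 127 CPM. Fgf3 had at most 8 UMIs in a bulk library, the first sorted XEN-like one, and was counted in 20.7% of 0 h cells by SMART-seq2.

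Across the 22 bulk conditions, the genes whose log2(CPM + 1) was most like that of a member were, by Pearson correlation, Nr0b1 (0.954), Cpsf4l (0.947) and Esrrb (0.937) for Fgf4. For Fgf15 they were A730017C20Rik (0.916), Foxb1 (0.850) and Fubp1 (0.849). For Fgfr1 they were Cxx1c (0.920), Lrch2 (0.912) and Hoxb9 (0.909), and for Fgfr2 Scap (0.910), Sort1 (0.894) and Nrip1 (0.872). For Fgfr3 they were Szrd1 (0.859), Hkdc1 (0.823) and Lpar3 (0.819). Nr0b1 and Esrrb are factors of the pluripotent state, Foxb1 is a factor of the neural tube and Hoxb9 a posterior homeobox gene. The correlations were taken over conditions that share time, libraries of single cultures and depth, and are descriptions.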

How the data were processed

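Bulk libraries were made from 10 ng RNA as 3′ tagged libraries with UMIs, and per the labels the authors aligned reads with BWA 0.7.4 to RefSeq mRNAs and deposited UMI counts per gene without normalization. The counts of SCRB-seq wells were produced by the authors likewise. For SMART-seq2 the authors deposited RPKM, computed with TopHat and Cuffnorm on mm10. The read depth of each cell is therefore unknown, beyond the minimum of reads per cell that the paper set. In the deposited RPKM no value between 1 and 10 has 4 decimals, while values of the form expected from a lost decimal place are in excess (an estimated 33.7 to 36.2% of values with 2 digits before and 3 after the point), so only the limits 1 and 100 RPKM, which such a displacement does not cross, were used, both for shares of cells and for classes of cells by Cd24a and Pdgfra. This choice was made after seeing the data, in place of shares above 5 RPKM, scaled means and quartiles of Cd24a.

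Sorted cells and mESCs (6 libraries, 2 per group) were compared by edgeR (version 4.0.16, R 4.3.3; TMM factors, filterByExpr, quasi-likelihood fit of all 6, Benjamini-Hochberg over 8947 genes, call at an adjusted p below 0.05). DESeq2 1.42.0, other scaling, no filter, fewer libraries and a replicate block were alternatives. Replicates correlated at 0.949 to 0.957 (Pearson, log2), and an exact permutation test of 2 against 2 cannot go below 0.333. On simulated data 4-fold changes were recovered for 81, 79 and 76% of genes and 2-fold changes for 13, 9 and 10% in ectoderm-like against mESC (8466 genes), XEN-like against mESC (8440) and XEN-like against ectoderm-like cells (8440), with 0 in the wrong direction. Bulk conditions with 1 library and all single-cell values were described without a test. A SCRB-seq well counted as a cell above 2000 UMIs, and no doublet caller was run. 2 genes with text in place of a count were left out.

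The members and the gene lists were chosen with earlier results of these data known. Named were the 8 members, up to 4 called genes of each list and comparison by absolute log2 fold change, the neighbours on chromosome 7 and the 3 genes most like each member with at least 100 UMIs, among genes reaching 10 CPM in a condition. Python 3.11.15, numpy 2.4.6, pandas 2.3.3, scipy 1.17.1 and matplotlib 3.10.9 were used.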

Additional observations from a re-analysis of the deposited data

Results flagged for a closer look

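The ectoderm-like and XEN-like cells sorted at 96 h differed in 2 members by the test of the difference itself. Fgf15 had a log2 fold change of -7.28 in XEN-like against ectoderm-like cells, which came from 47.2 and 84.0 CPM in ectoderm-like and 0 and 0.911 CPM in XEN-like libraries. Fgfr1 had a log2 fold change of -3.99, from 38.9 and 16.2 CPM against 2.54 and 0 CPM.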

How the results depend on the processing

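All 3 comparisons kept the number of called members under DESeq2 (3, 3 and 2 of 5) to within 1 of the main 4, 3 and 2. Without the low-count filter 5 of 8 members were called in XEN-like cells against mESCs, Fgfr2 and Fgfr4 being added. Leaving out 1 library at a time gave 2 to 3, 2 to 4 and 1 to 3 members and 876 to 1750, 1267 to 1962 and 296 to 1371 genes called in ectoderm-like against mESC, XEN-like against mESC and XEN-like against ectoderm-like cells. Without the first ectoderm-like library 1029 and 296 genes were called in its comparisons (1711 and 1139 with all libraries), and without the second 876 and 667. Without the first XEN-like library 1267 and 478 genes were called in its comparisons (2042 and 1139), and without the second 556 against ectoderm-like cells. Fgf15 in XEN-like cells against mESCs and Fgf4 in XEN-like against ectoderm-like cells, neither of them called, changed sign without the first XEN-like library (0.39 and -2.26). Over the libraries left out, Fgf15 there ranged from -3.67 to 0.39 and Fgf4 from -2.26 to 3.84. Fewer samples entered these fits.

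With the replicate block, in which the number of the sorted libraries was a term and the mESC libraries stood outside, 4, 3 and 2 members and 1973, 2398 and 1339 genes were called, and no member changed its call. The labels do not say that equal numbers mark a shared batch, and only 2 pairs exist. Deviations of the first ectoderm-like and first XEN-like library correlated at 0.333 over 8947 genes.

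The log2 change of Fgf4 from 0 h to 96 h was -3.14 with TMM factors over the 25 libraries, against -2.81, and the cause was not tested. Of the 32 SCRB-seq levels recomputed, 3 moved by more than their counting interval. The count limits Fgf5, Fgf8 and Fgfr4 most, which had at most 12 UMIs in a library.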

Other observations

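In the XEN-like culture, 2 genes that were low in sorted XEN-like cells had higher counts. Ano1, a chloride channel gene that lies before Fgf3 on chromosome 7, had 71 UMIs (48.98 CPM) there and at most 5 UMIs in the sorted ectoderm-like and XEN-like libraries. Fgf1, a ligand of all FGF receptors, had 22 UMIs in the same culture. Both were chosen for these counts, and there is 1 library of this culture.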
